A study of Mus musculus with 20 samples.

Results

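The mitochondrial carrier family, the Slc25 genes, was followed in whole spleens of young mice. Members were taken by name and type: protein-coding genes of the count table whose symbol is Slc25a and a number. This gave 47 of 54532 genes in the table, or 47 of its 22046 protein-coding genes. The samples were 20 spleen RNA sequencing libraries of mice aged 4 weeks, 11 from control mice and 9 from mice bred on a gluten-free diet. By the form of the library ID there were 4 groups: control mice with plain number IDs (n = 8, IDs 1 to 8), gluten-free mice with plain IDs (n = 4, IDs 7 to 10), control mice with IDs that begin with S (n = 3, S1, S2 and S6) and gluten-free mice with S IDs (n = 5, S1, S3, S5, S6 and S8). What the letter S stands for, the strain, the sex and the diet of the controls are not given in the sources used here, and no label says which IDs come from separate animals or litters, so every p-value measures the spread between these libraries, which may in part be technical. The question was whether the carriers differ between the diets, and the ID form was kept as a possible cohort.

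Proteins of this family sit mostly in the inner mitochondrial membrane and exchange small molecules across it: ADP for ATP, phosphate, iron, amino acids, carboxylates, carnitine and coenzymes. The mouse spleen also makes red blood cells, and a red cell precursor needs mitochondrial carriers to bring iron and glycine in for haem. Slc25a37 (mitoferrin-1) imports that iron in red cell precursors, Slc25a38 imports glycine, and Slc25a28 (mitoferrin-2) imports iron in many other cell types.

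Library totals ran from 13626021 to 24268237 counts, and all 47 members had at least 1 count in the table. The default expression filter kept 18362 genes and 42 members for testing. Slc25a2, Slc25a34, Slc25a41, Slc25a48 and Slc25a54 did not pass it, and Slc25a54 had 2 counts in all, both in 1 library. Marker genes of pancreatic acinar cells summed to 952 CPM (counts scaled to library size) in control 4 and to 11084 CPM in gluten-free S1, against at most 29.3 CPM in every other library. Counts of members without strand information are less certain where a member overlaps a gene on the opposite strand. This holds for Slc25a11 (with Rnf167), Slc25a25 (with Naif1), Slc25a53 (with Zcchc18), Slc25a26 (with Lrig1) and Slc25a18 (with Atp6v1e1). It also holds for others, among them Slc25a36 (with Gm16185), Slc25a23 (with Crb3), Slc25a21 (with Pax9) and Slc25a35 (with Rangrf). Slc25a5 has processed copies elsewhere in the genome, so its counts are also less certain.

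Mitoferrin-1 was the family's most abundant transcript per length. Slc25a37 averaged 864 TPM (counts per gene length, scaled to 1 common total per library) over the 20 libraries, from 437 TPM in gluten-free 7 to 1287 TPM in gluten-free S8. Next in mean TPM came the ADP/ATP carrier Slc25a5 at 446, the glutathione carrier Slc25a39 at 284 and the NAD carrier Slc25a51 at 191. The glycine carrier Slc25a38 at 130.3 TPM and the phosphate carrier Slc25a3 at 129 TPM had nearly the same mean level and overlapping ranges, from 75.4 to 187 TPM and from 96.5 to 161 TPM. The second ADP/ATP carrier, Slc25a4, stood at 78.0 TPM, the oxoglutarate carrier Slc25a11 at 57.0 TPM, mitoferrin-2 at 39.0 TPM and the citrate carrier Slc25a1 at 34.1 TPM. The carriers of iron, glycine and glutathione, Slc25a37, Slc25a38 and Slc25a39, were thus all among the 5 most abundant members on this scale. At the other end, Slc25a47 (0.999 TPM), Slc25a43 (0.910 TPM) and the testis ADP/ATP carrier Slc25a31 (0.353 TPM) were the 3 least abundant of the tested members.

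**Figure D1:**
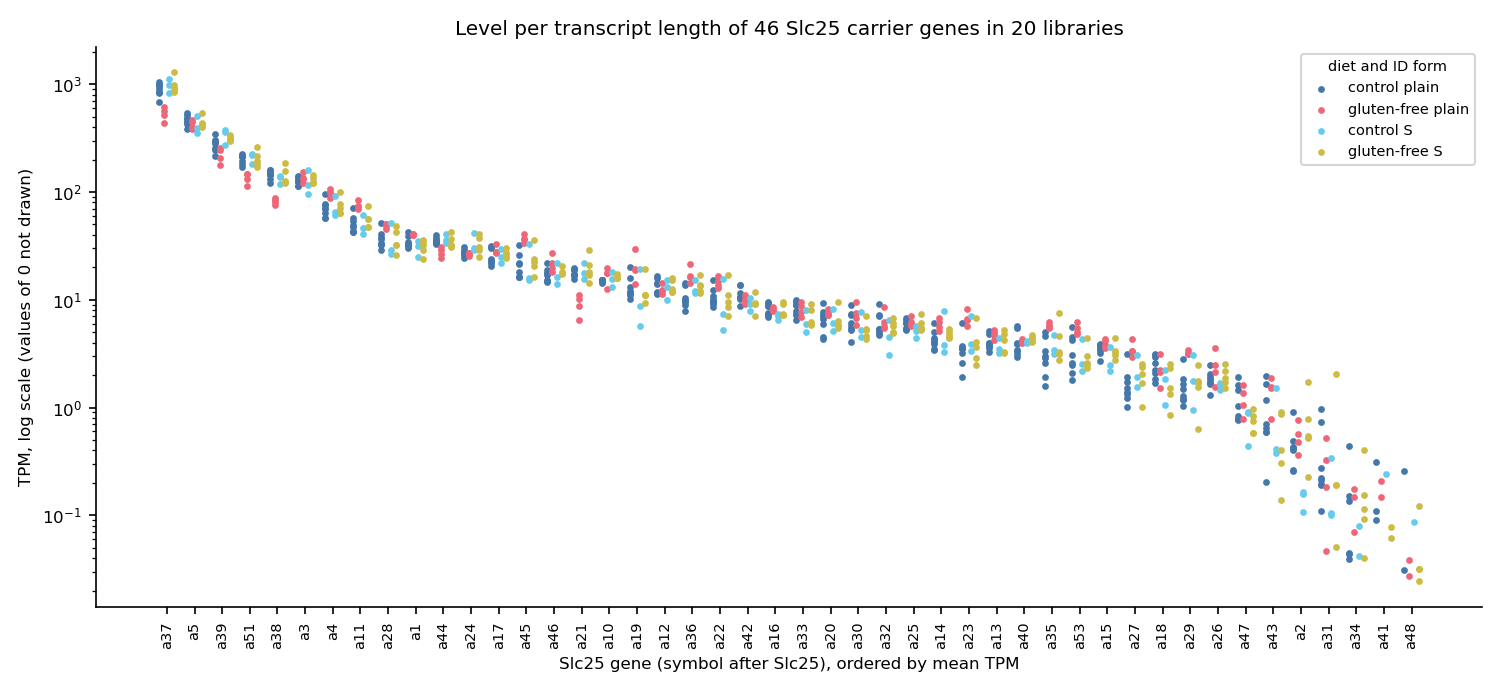
Each column is 1 Slc25 gene, ordered by mean TPM, and each point is 1 library; the vertical axis is TPM on a log scale, colours mark diet and ID form, and Slc25a54 and values of 0 are not drawn. Slc25a37 lies between 437 and 1287 TPM, and its gluten-free plain libraries are the 4 lowest.

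In the plain IDs, where 4 gluten-free libraries were set against 8 controls, 14 of 42 tested members fell and 7 rose in the gluten-free spleens (edgeR quasi-likelihood test, adjusted p under 0.05). That is 33.3% of the members lower and 16.7% higher. Over all 18362 tested genes 22.1% were called lower and 17.5% higher. In a fit of protein-coding genes alone it was 25.7% and 20.9%. The members' share called lower was above both. Their share called higher was near that of all genes and below that of protein-coding genes. The members' median log2 fold change (gluten-free minus control for every diet comparison) was -0.20, and that of all tested genes was 0.03. These counts use scaling by trimmed means (TMM). Scaling by library totals alone moved the median of all tested genes to 0.31 and that of the members to 0.08, and gave 7 members lower and 12 higher, against 11.1% and 35.5% of all tested genes. Upper-quartile scaling gave 11 lower and 9 higher, against 17.8% and 23.9%. Relative to the median of all genes the members' median was lower under each of these scalings. Of the 21 called members only Slc25a17 changed sign, from -0.19 to 0.08 with library totals. Slc25a3 and Slc25a25 came to -0.008 and -0.02 with library totals. Calls lost with that scaling included those of Slc25a12, Slc25a16, Slc25a25 and Slc25a42.

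The carriers of iron, haem precursors and glutathione were the role group with the largest drop, with a median log2 fold change of -0.73. In it 3 of 5 members fell and none rose, against 22.1% and 17.5% of all tested genes. Slc25a37 (ENSMUSG00000034248, chr14:69241848-69285112, minus strand, GRCm38) lay between 1706 and 3531 CPM, with a median of 2889 CPM, in the plain controls, and at 950.5, 1583, 1388 and 1292 CPM in gluten-free 7, 8, 9 and 10. The lowest control was ID 8, and it still lay above every gluten-free plain library. The difference was -1.15 ± 0.18 (log2 fold change ± standard error, adjusted p = 0.000109), which leaves the gluten-free plain level at 45.0% of the control level. In bulk tissue such a difference cannot be split between fewer cells of a type and less RNA per cell, which cannot be told apart here or in any comparison below.

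The glycine carrier had the same lowest control and the same order of the 4 gluten-free plain libraries. Slc25a38 (ENSMUSG00000032519, chr9:120110374-120124504, plus strand) ran from 137 to 242 CPM (median 213) in the plain controls and stood at 74.7, 101, 99.1 and 91.0 CPM in gluten-free 7 to 10. Again control 8 was the lowest control and the groups did not overlap (log2 fold change -1.21 ± 0.14, adjusted p = 1.85e-05). Slc25a39, which brings glutathione into mitochondria, ran from 249 to 516 CPM (median 447) in the plain controls and stood at 176, 303, 273 and 234 CPM in gluten-free 7 to 10. Here gluten-free 8 and 9 reached above control 8, so the groups overlapped, and the fold change was smaller (-0.73 ± 0.19, adjusted p = 0.00623). Its relative Slc25a40 changed by -0.30 ± 0.12 on the log2 scale and did not pass the threshold (adjusted p = 0.0549).

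Mitoferrin-2 did not fall with mitoferrin-1. Slc25a28 (ENSMUSG00000040414, chr19:43663822-43674881, minus strand) ran from 24.5 to 33.9 CPM (median 28.6) in the plain controls and stood at 27.6, 29.7, 30.0 and 31.7 CPM in the gluten-free plain libraries, all inside the control range. Its log2 fold change was 0.04 ± 0.10 (adjusted p = 0.755). That value depends on the scaling: it was 0.13 with upper-quartile scaling and 0.31 with library totals alone. For Slc25a37 these scalings gave -1.06 and -0.87. The ratio of Slc25a37 to Slc25a28 in TPM was therefore between 13.2 and 30.4 in the plain controls and between 8.67 and 13.4 in the gluten-free plain libraries, with overlap only at the edge, where control 8 met gluten-free 8. Slc25a37 made up 27.8% to 37.4% of the family's summed TPM in the plain controls and 21.0% to 28.3% in the gluten-free plain libraries.

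**Figure D2:**
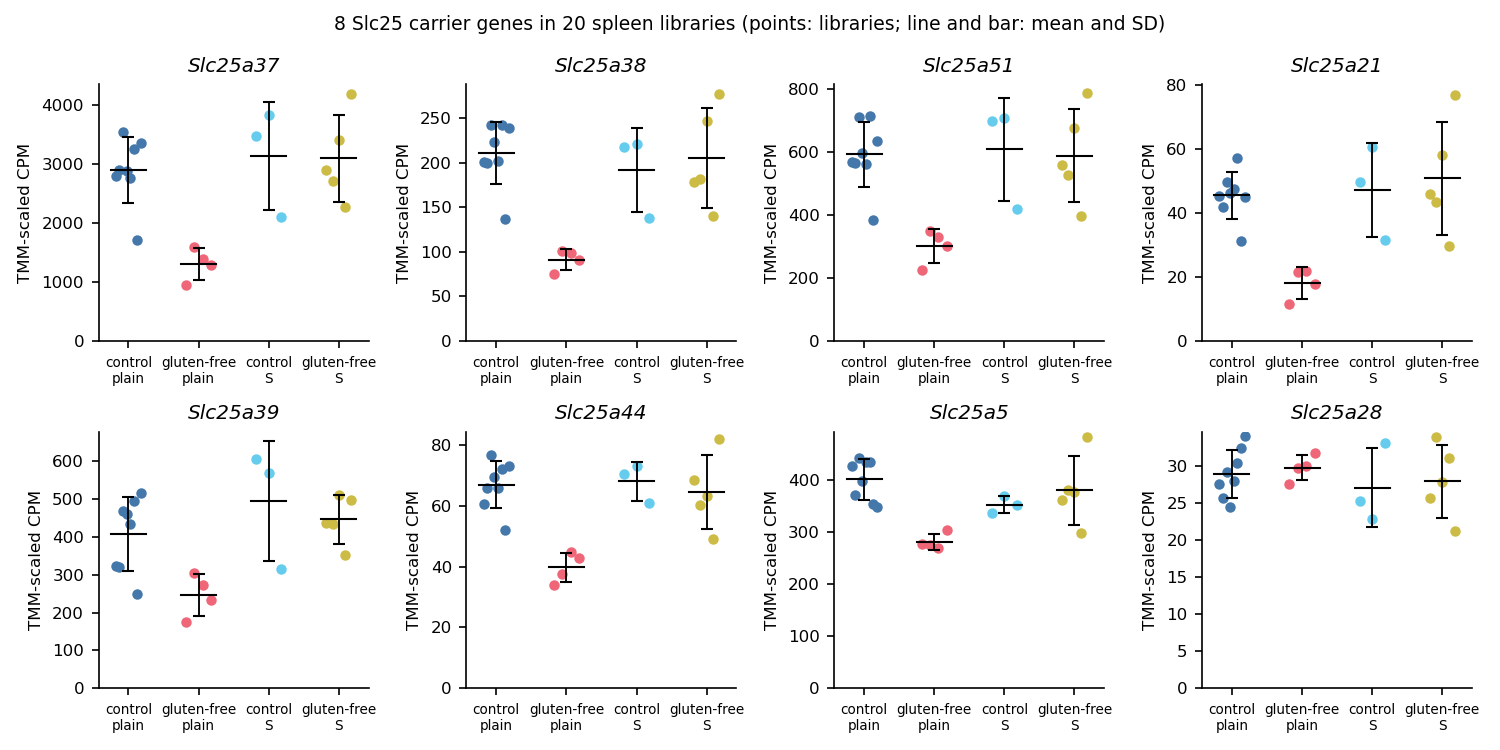
Points are libraries in TMM-scaled CPM, lines and bars are the group mean and SD, and each panel is 1 gene with the vertical axis from 0. For Slc25a37 the 4 gluten-free plain libraries lie between 950.5 and 1583 CPM, below every other library, while Slc25a28 overlaps in all 4 groups.

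Among the carriers of coenzymes and nucleotides 4 of 9 members fell and 1 rose in the plain IDs, against 22.1% and 17.5% of all tested genes. The NAD carrier Slc25a51 (ENSMUSG00000045973, chr4:45395923-45408766, minus strand) had 385 to 712 CPM (median 581) in the plain controls and 226, 349, 329 and 300.1 CPM in gluten-free 7 to 10, without overlap (-0.97 ± 0.15, adjusted p = 0.000134). Slc25a42, a coenzyme A carrier, had 28.8 to 39.2 CPM (median 36.6) in the plain controls and 24.1, 26.3, 23.6 and 22.6 CPM in gluten-free 7 to 10 (-0.54 ± 0.10, adjusted p = 0.000624). Its groups did not overlap in CPM either, but its call was lost with library totals alone (-0.26). Slc25a16, also tied to coenzyme A, and Slc25a17, a peroxisomal carrier of coenzyme A and related cofactors, fell by 0.39 and by 0.19 on the log2 scale. With library totals alone they changed by -0.12 and 0.08. The pyrimidine nucleotide carrier Slc25a36 went the other way, with 44.6 to 59.8 CPM (median 53.2) in the plain controls and 73.9, 59.2, 63.3 and 65.0 CPM in gluten-free 7 to 10 (0.33 ± 0.09, adjusted p = 0.00899). Only gluten-free 8 of these lay inside the control range. The folate carrier Slc25a32 (-0.28 ± 0.12, adjusted p = 0.0662) and the pyrimidine carrier Slc25a33 (-0.39 ± 0.15, adjusted p = 0.0502) did not pass.

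The lowest fold change of all members was that of a carboxylate carrier. Slc25a21 (ENSMUSG00000035472, chr12:56712634-57197472, minus strand), which carries the lysine breakdown product oxoadipate, had 31.3 to 57.3 CPM (median 45.9) in the plain controls and 11.4, 21.5, 21.9 and 17.7 CPM in gluten-free 7 to 10. The groups were well apart, and the log2 fold change was -1.33 ± 0.17 (adjusted p = 2.90e-05). The other 4 carriers of carboxylates and carnitine were not called lower. The citrate carrier Slc25a1 changed by -0.17 ± 0.14 (adjusted p = 0.341) and the carnitine carrier Slc25a20 by -0.16 ± 0.13 (adjusted p = 0.355). Slc25a10 changed by -0.22 (adjusted p = 0.167). With library totals alone Slc25a1, Slc25a20 and Slc25a10 were positive, at 0.12, 0.11 and 0.07. Slc25a11 rose by 0.21 ± 0.07 (adjusted p = 0.0227), with 63.5 to 65.2 CPM in the gluten-free plain libraries above the highest control at 62.4 CPM. That call was lost without gluten-free 7, 9 or 10 (adjusted p from 0.0523 to 0.0602).

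Of the ADP/ATP and phosphate carriers the main form fell and the minor form did not. Slc25a5 had 348 to 442 CPM (median 413) in the plain controls and 277, 275, 269 and 304 CPM in gluten-free 7 to 10 (-0.51 ± 0.09, adjusted p = 0.000424). These groups did not overlap in CPM, but they did in TPM. Slc25a4, the form known from heart and muscle, changed by 0.11 ± 0.08 (adjusted p = 0.267), and by 0.38 with library totals alone. The TPM ratio of Slc25a5 to Slc25a4 was thus 5.35 to 7.78 in the plain controls and 4.09 to 4.61 in the gluten-free plain libraries, again without overlap. The phosphate carrier Slc25a3 fell by 0.29 on the log2 scale (standard error 0.08, adjusted p = 0.0102). That fall depends on the scaling, as Slc25a3 changed by -0.008 with library totals alone. Its mean TPM was 127 in the plain controls and 135 in the gluten-free plain libraries.

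**Figure D3:**
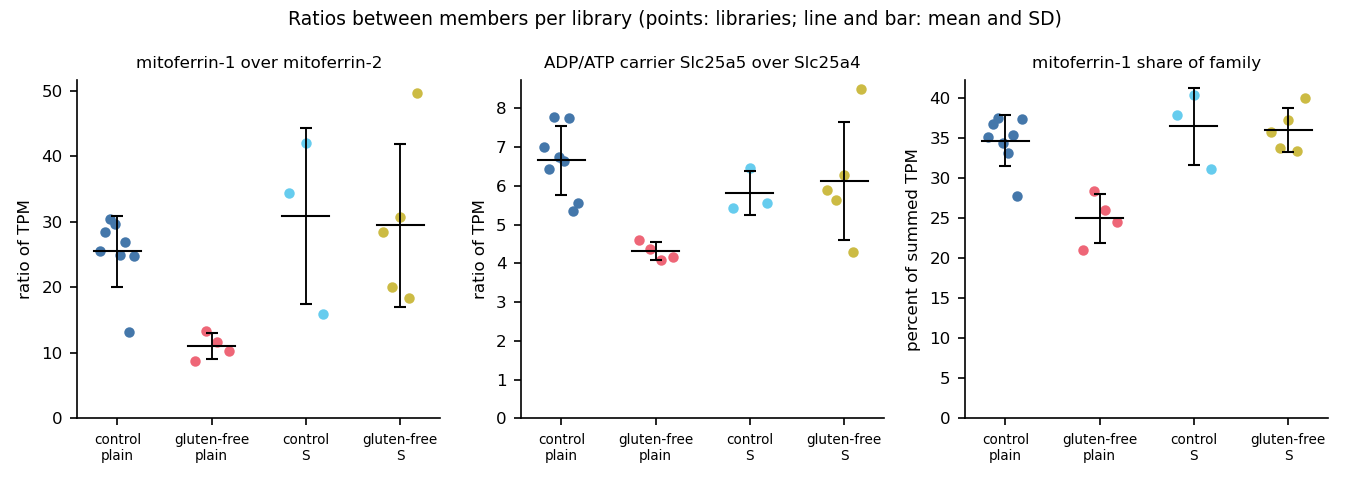
The panels give, per library, the TPM ratio of Slc25a37 to Slc25a28, that of Slc25a5 to Slc25a4, and the percent of the family's summed TPM held by Slc25a37; points are libraries, lines and bars the group mean and SD. The gluten-free plain libraries lie between 8.67 and 13.4 in the first panel and between 4.09 and 4.61 in the second.

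Amino acid carriers were mixed, with 2 of 7 tested members lower and 1 higher, against 22.1% and 17.5% of all tested genes. Slc25a44, which carries branched-chain amino acids, had 52.1 to 76.7 CPM (median 67.8) in the plain controls and 34.1, 37.5, 44.8 and 42.7 CPM in gluten-free 7 to 10 (-0.75 ± 0.11, adjusted p = 6.24e-05). The aspartate and glutamate carrier Slc25a12 had 45.4 to 58.0 CPM (median 50.6) in the plain controls and 36.0 to 37.6 CPM in the gluten-free plain libraries (-0.47 ± 0.08, adjusted p = 0.000193). Neither pair of groups overlapped in CPM. In TPM Slc25a12 overlapped, with 11.3 to 16.5 in the plain controls and 11.3 to 14.2 in the gluten-free plain libraries. The call of Slc25a12 was lost with library totals alone (log2 fold change -0.19). Its paralog Slc25a13 (citrin), the less abundant of the pair, changed by -0.12 ± 0.14 (adjusted p = 0.506). The basic amino acid carrier Slc25a29 rose: it had 1.60 to 3.03 CPM (median 1.77) in the plain controls and 3.25, 3.56, 3.34 and 3.46 CPM in gluten-free 7 to 10 (0.70 ± 0.21, adjusted p = 0.0149). Its gluten-free libraries all lay above the controls, at a low level.

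The remaining calls fell among the calcium-regulated carriers, the uncoupling protein-like carriers and the less characterised members. The calcium-regulated carriers of ATP-Mg and phosphate split: Slc25a24 fell by 0.42 and Slc25a25 by 0.30 on the log2 scale, and Slc25a23 rose by 0.59 ± 0.16 (adjusted p = 0.00810). The call of Slc25a25 was lost without gluten-free 10 (adjusted p = 0.0514), and also with upper-quartile scaling or library totals alone. With library totals alone Slc25a24 came to -0.14. Slc25a27, a brain-type uncoupling protein, rose by 0.73 ± 0.19 (adjusted p = 0.00668), with 2.38 to 5.15 CPM in the plain controls and 5.02 to 6.16 CPM in the gluten-free plain libraries. Its groups overlapped at gluten-free 8. Slc25a45 had a median of 27.3 CPM and at most 35.2 CPM (ID 8) in the plain controls and 39.3, 38.1, 39.9 and 40.1 CPM in gluten-free 7 to 10, without overlap (0.46 ± 0.10, adjusted p = 0.00150). Slc25a35 rose by 0.55 ± 0.19 (adjusted p = 0.0300), a call lost without gluten-free 8, 9 or 10 (adjusted p from 0.0581 to 0.0857). Slc25a53 changed by 0.37 ± 0.18 and did not pass (adjusted p = 0.112). In all, on TMM-scaled CPM, the gluten-free plain libraries lay wholly below the plain controls for 12 tested members (28.6%, against 14.2% of all tested genes). They lay wholly above them for 3 (7.14%, against 6.83%). In TPM, Slc25a37, Slc25a38, Slc25a51, Slc25a21 and Slc25a44 still lay wholly below, and the groups of the others of these 12 overlapped. Of the 3 above, Slc25a11 overlapped in TPM, and Slc25a29 and Slc25a45 did not.

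Promoter sequence is shown for 3 members that fell together in the plain IDs and, as a contrast, for mitoferrin-2, which did not. Each is the 250 bases before a transcription start in RefSeq (GRCm38.p6), 5′ to 3′ on the gene's strand, and capitals mark 2 short motifs known from red cell genes, read on both strands: the GATA motif (written AGATAA, as well as AGATAG, and with a first T as TGATAA, as well as TGATAG) and the CACCC box (CCACCC). The windows are chr9:120110132-120110381 (plus strand) for Slc25a38, chr12:57197473-57197722 (minus strand, the first of 2 listed starts) for Slc25a21, chrX:36795347-36795596 (plus strand) for Slc25a5 and chr19:43674882-43675131 (minus strand) for Slc25a28.
Slc25a38: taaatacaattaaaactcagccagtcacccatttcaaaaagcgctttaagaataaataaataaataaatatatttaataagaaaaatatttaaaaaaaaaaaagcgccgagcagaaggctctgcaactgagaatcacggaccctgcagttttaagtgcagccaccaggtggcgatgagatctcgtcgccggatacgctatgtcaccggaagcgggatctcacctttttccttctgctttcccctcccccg
Slc25a21: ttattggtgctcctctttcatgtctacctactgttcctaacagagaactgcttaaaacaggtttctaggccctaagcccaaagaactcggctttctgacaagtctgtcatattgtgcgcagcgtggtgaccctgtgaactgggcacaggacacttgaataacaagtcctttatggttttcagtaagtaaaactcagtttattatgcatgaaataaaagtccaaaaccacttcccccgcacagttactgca
Slc25a5: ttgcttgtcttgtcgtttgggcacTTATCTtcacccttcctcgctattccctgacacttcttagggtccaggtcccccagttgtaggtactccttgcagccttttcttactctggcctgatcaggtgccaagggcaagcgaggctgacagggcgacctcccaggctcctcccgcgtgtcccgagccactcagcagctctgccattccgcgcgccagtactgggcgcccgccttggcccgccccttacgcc
Slc25a28: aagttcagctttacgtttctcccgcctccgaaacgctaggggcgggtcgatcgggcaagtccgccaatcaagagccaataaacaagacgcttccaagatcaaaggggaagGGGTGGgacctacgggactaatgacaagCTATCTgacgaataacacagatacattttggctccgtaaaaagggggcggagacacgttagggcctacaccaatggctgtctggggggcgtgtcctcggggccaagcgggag

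The windows of Slc25a38 and Slc25a21 held neither motif. That of Slc25a5 held 1 GATA match, which begins 226 bases before the start, and that of Slc25a28 held 1 GATA match and 1 CACCC box. RefSeq windows were matched for 36 of the 47 members; Slc25a37, Slc25a51 and Slc25a44 were not among them. A GATA match stood in 26.5% of all 32851 windows. Counted per gene, it stood in a window of 29.7% of all genes in the table, of 6 of the 36 members (16.7%), and of 2 of the 11 matched members that fell in the plain IDs (Slc25a5 and Slc25a12). A CACCC box stood in 28.1% of all windows, and per gene in a window of 30.6% of all genes, of 12 of the 36 members (33.3%) and of 2 of those 11 (Slc25a24 and Slc25a39). These matches describe letters in a short window only.

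Red cell precursor genes fell too. All 15 erythroid markers (among them Klf1, the transcription factor Gata1 and the band 3 gene Slc4a1) were counted in the libraries, none at 0, and all 15 fell in the plain IDs, with a median log2 fold change of -1.38. Their summed level ran from 9475 (control 8) to 17634 CPM in the plain controls, from 4166 (gluten-free 7) to 7072 CPM in the gluten-free plain libraries, from 10059 (S6) to 20129 CPM in the S controls and from 9218 (S6) to 23488 (S8) CPM in the gluten-free S libraries. Set against that sum, Slc25a37 came to 17.7% to 22.4% of it in the plain controls and to 21.7% to 22.8% in the gluten-free plain libraries, and Slc25a21 to 0.282% to 0.343% and 0.275% to 0.343%, so both overlapped. By the same measure Slc25a51 was at 3.59% to 4.26% in the plain controls and 4.94% to 5.42% in the gluten-free plain libraries, and Slc25a39 at 2.05% to 3.47% and 4.00% to 4.29%, with no overlap and the gluten-free libraries higher. Slc25a5, at 2.34% to 3.73% and 3.88% to 6.65%, did not overlap either. Slc25a38 (1.27% to 1.61% and 1.43% to 1.79%) and Slc25a44 (0.383% to 0.550% and 0.530% to 0.818%) overlapped. The part of red cell precursors in the carrier differences was not tested.

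**Figure D4:**
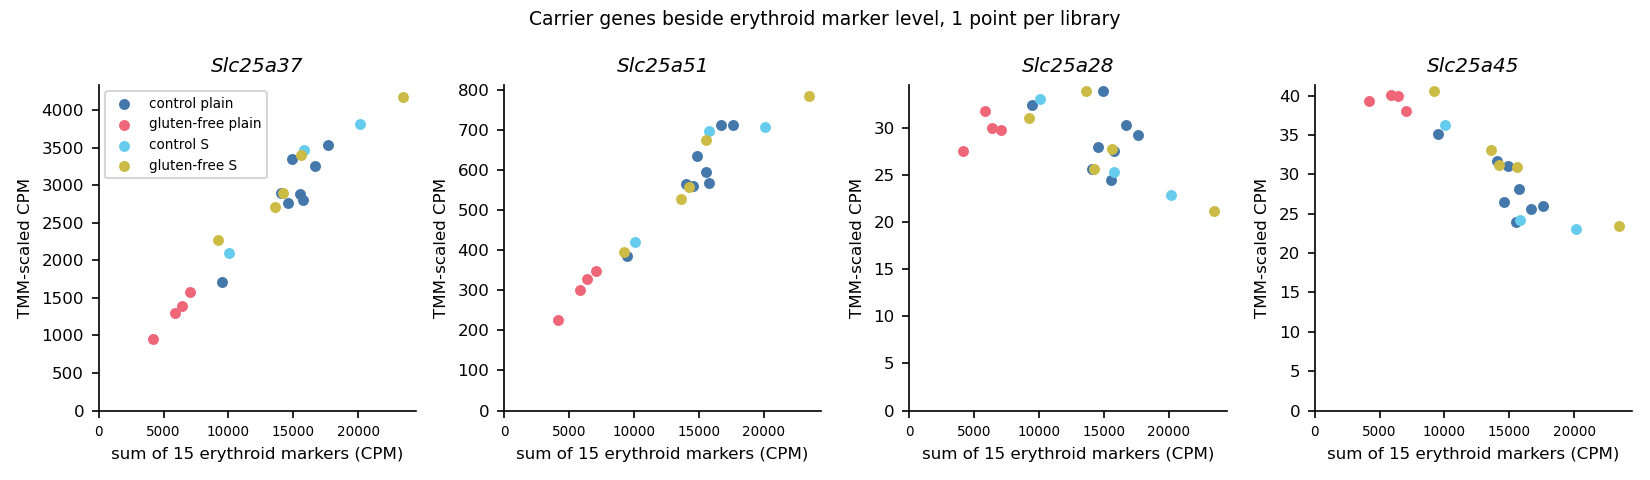
Each point is 1 library, with the summed CPM of 15 erythroid markers on the horizontal axis and the CPM of 1 carrier gene on the vertical axis, both from 0. Libraries low in the markers, which include all 4 gluten-free plain libraries, are low in Slc25a37 and Slc25a51 and high in Slc25a45.

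Other cell markers differed in the plain IDs as well. All 10 proliferation genes fell (median -1.22), all 10 neutrophil genes (median 1.66), all 10 T cell genes (median 0.70) and all 9 tested of 10 megakaryocyte genes (median 1.00) rose, and 2 of 10 B cell genes rose. Over all tested genes 22.1% were called lower and 17.5% higher. The summed neutrophil markers ran from 714 to 2259 CPM in the plain controls and from 2919 to 7642 CPM in the gluten-free plain libraries, and the summed T cell markers from 366 to 641 CPM and from 679.7 to 817 CPM. The summed B cell markers ran from 3871 to 6607 CPM and from 6430 to 7306 CPM, with overlap. None of the 10 red pulp macrophage genes passed. Of the acinar genes 5 of 10 fell, of the adipocyte genes 1 of 8 tested rose and of the muscle genes 2 of 6 tested fell. The plain controls include control 4, with an acinar sum of 952 CPM. The other plain controls ran from 6.65 to 19.9 CPM and the gluten-free plain libraries from 7.43 to 9.95 CPM. The sums of adipocyte markers (34.7 to 106 CPM in the plain controls, 36.9 to 158 CPM in the gluten-free plain libraries) and of skeletal muscle markers (26.2 to 36.1 CPM and 21.8 to 27.5 CPM) were low, with Ucp1 and Cidea of the first list and Myh4, Pvalb and Mb of the second under 0.1 CPM on average. The part of these cell types in the carrier results was not tested.

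Several lists of other mitochondrial genes, made by function, also went down in the gluten-free plain libraries. There 22.1% of all tested genes were called lower and 17.5% higher. The inner membrane transporters of other families, given at the end, were more mixed. The medians here use TMM scaling, and library totals alone moved that of all tested genes from 0.03 to 0.31. Of the haem synthesis enzymes 8 of 9 fell and 1 rose (median -1.23), among them Cpox (-1.40 ± 0.17, adjusted p = 2.46e-05), Uros (-1.31 ± 0.15) and Urod (-1.30 ± 0.17). Of the iron-sulphur cluster assembly genes 10 of 13 fell and none rose (median -0.76). Of the outer membrane channels and import subunits 16 of 17 tested fell (median -0.44), and of the citric acid cycle enzymes 13 of 17 fell (median -0.34), none rising in either.

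In the S IDs, with 5 gluten-free and 3 control libraries, no member passed in either direction, as was the case for all tested genes (0.0% called higher and 0.0% called lower). By edgeR 0 members reached an unadjusted p under 0.05, DESeq2 also called 0, the smallest adjusted p was 0.913, and the members' median log2 fold change was 0.06 (0.01 over all genes). Slc25a37 stood at 3462, 3819 and 2095 CPM in S controls S1, S2 and S6, and at 2893, 2711, 3395, 2268 and 4178 CPM in gluten-free S1, S3, S5, S6 and S8 (-0.02 ± 0.24). The S6 libraries of both diets were the lowest of their groups, and the groups overlapped. Slc25a38 (0.09 ± 0.23), Slc25a21 (0.10 ± 0.28) and Slc25a51 (-0.06 ± 0.23) overlapped likewise. The ornithine carrier Slc25a15 was the only member whose gluten-free S libraries (8.96 to 10.5 CPM) all lay above the S controls (6.99 to 8.71 CPM). That is 2.38% of the tested members, near the 1.65% of all tested genes, and its fold change of 0.28 ± 0.16 did not pass (adjusted p = 0.913).

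**Figure D5:**
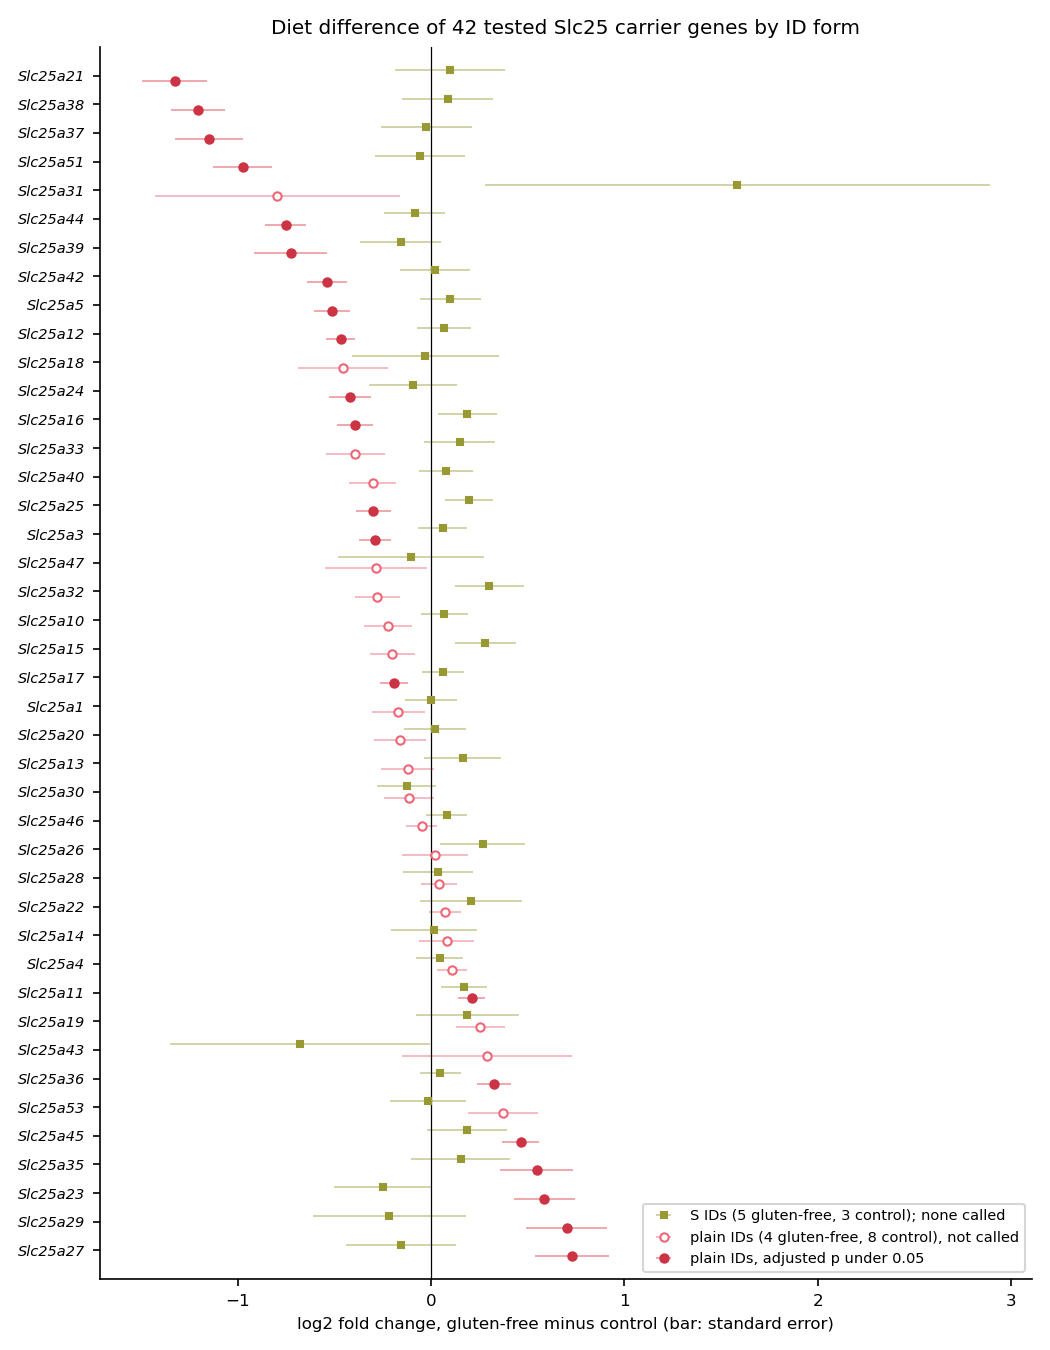
Log2 fold changes of gluten-free minus control with their standard errors for the 42 tested members, ordered by the plain IDs (circles, filled where the adjusted p is under 0.05) with the S IDs beside them (squares). In the plain IDs Slc25a21, Slc25a38 and Slc25a37 lie at -1.33, -1.21 and -1.15, and in the S IDs the same genes lie at 0.10, 0.09 and -0.02.

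The difference between the diet effects of the S and plain IDs was tested as an interaction (S minus plain). It passed for 14 members, 13 of them positive (31.0% of members, against 15.4% of all tested genes) and 1 negative (2.38%, against 9.37%). The members' median interaction was 0.28 on the log2 scale, and that of all genes was -0.02. The largest among those called were Slc25a21 (1.43 ± 0.34, adjusted p = 0.00602), Slc25a38 (1.30 ± 0.27, adjusted p = 0.00354), Slc25a37 (1.13 ± 0.31, adjusted p = 0.0128) and Slc25a51 (0.93 ± 0.28, adjusted p = 0.0223). Slc25a44 (0.67 ± 0.19), Slc25a5 (0.62 ± 0.16), Slc25a16 (0.59 ± 0.16), Slc25a12 (0.54 ± 0.14) and Slc25a25 (0.50 ± 0.13) passed too, and so did Slc25a3 with 0.36 ± 0.13. For Slc25a28 the interaction was 0.00 ± 0.19. The call of Slc25a51 was lost without control S6 or gluten-free 7 (adjusted p of 0.0788 and 0.0538). The calls of Slc25a15, Slc25a32, Slc25a42 and of the 1 negative member, Slc25a23 (-0.83 ± 0.29), were lost when single libraries were left out: in 12, 7, 13 and 13 of 20 cases. With library totals alone 4 members were called positive and 3 negative, against 7.05% and 14.4% of all tested genes. With upper-quartile scaling it was 9 and 3, against 10.9% and 12.3%, and under these scalings the median of all genes moved to -0.30 and -0.13.

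The gluten-free plain libraries also stood apart from the gluten-free S libraries. On the same diet, 10 of 42 members were higher in the S than in the plain libraries (23.8%, against 16.6% of all tested genes) and 1 was lower (2.38%, against 15.4%). These comparisons share libraries with those above and are no independent support. The 10 included 4 of the 5 iron, haem and glutathione carriers: Slc25a37 (1.20 ± 0.21, adjusted p = 0.00311), Slc25a38 (1.12 ± 0.20, adjusted p = 0.00328), Slc25a39 (0.80 ± 0.17, adjusted p = 0.00623) and Slc25a40 (0.39 ± 0.11, adjusted p = 0.0232). Slc25a21 (1.44 ± 0.27), Slc25a51 (0.92 ± 0.20), Slc25a44 (0.65 ± 0.15), Slc25a24 (0.59 ± 0.16), Slc25a12 (0.42 ± 0.11) and Slc25a5 (0.39 ± 0.13) completed them, and Slc25a53 was the lower one (-0.57 ± 0.14, adjusted p = 0.0119). The call of Slc25a5 was lost in 8 of 9 cases when 1 library was left out (adjusted p from 0.0516 to 0.110). With library totals alone 6 members were higher and 11 lower, against 8.87% and 31.5% of all tested genes, and the median of all genes moved from -0.11 to -0.37. All 15 erythroid markers were higher in the S than in the plain gluten-free libraries (median 1.32), and their part in the carrier values was not tested.

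Among the controls the ID form made no difference that passed for any member (0 higher and 0 lower, against 1.64% and 0.517% of all tested genes). By edgeR 5 members had an unadjusted p under 0.05, and DESeq2 and limma-voom also called 0. The smallest adjusted p was that of Slc25a36 (0.30 ± 0.11, S minus plain, adjusted p = 0.157), which had 61.1 to 66.4 CPM in the S controls against 44.6 to 59.8 CPM in the plain controls. Slc25a37 differed by 0.12 ± 0.21 and Slc25a38 by -0.13 ± 0.17. Without control S6, 1 member was called higher and 2 lower, against 3.67% and 1.46% of all tested genes.

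Over both ID forms together, with the form as a term, no member passed (0 of 42 in each direction), nor did any of the tested genes by edgeR (0.0% higher and 0.0% lower). By edgeR 15 members had an unadjusted p under 0.05 and 8 an adjusted p under 0.1, the smallest being 0.0979, and DESeq2 called 3 higher and 6 lower, against 2.21% and 6.27% of all tested genes. Slc25a21 changed by -0.74 ± 0.24, Slc25a37 by -0.69 ± 0.21, Slc25a38 by -0.67 ± 0.20, Slc25a51 by -0.59 ± 0.18 and Slc25a44 by -0.47 ± 0.12, between the values within the plain and the S IDs given above. Slc25a45 (0.35 ± 0.11), Slc25a36 (0.21 ± 0.07) and Slc25a11 (0.20 ± 0.06) lay highest among those with an adjusted p under 0.1. Without control S6, 4 members were called higher and 9 lower by edgeR, against 8.05% and 12.2% of all tested genes. Without gluten-free S8 it was 3 and 9, against 5.02% and 10.9%.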

How the data were processed

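RNA of 20 whole spleens was sequenced on an Illumina instrument, per the labels. The values are raw read counts per gene as deposited by the authors. The submitters' processing notes name CASAVA, HISAT2 2.0.5, featureCounts 1.5.0 and the build GRCm38 (mm10). Strand setting, gene annotation release and the handling of multi-mapping reads are not given in the sources used here. Diet and ID form came from the sample titles, and columns were matched to samples by name (0 columns left unmatched); the column letter B is not explained there.

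The quasi-likelihood F test of edgeR 4.0.16 (run in R 4.3.3) was applied to the counts after TMM scaling and the default expression filter over the 4 groups, two-sided, with Benjamini-Hochberg adjustment over all 18362 genes tested and a threshold of 0.05. Diet was tested over both ID forms with the form as a term, within plain IDs and within S IDs, and as an interaction, and ID form was tested within each diet. Log2 fold changes are those of the edgeR fit at its default settings. A prior count of 2 was used only for the log2 CPM behind the correlations between libraries. CPM is TMM-scaled, and TPM was computed from the counts and the table's gene lengths. The fit was tested on simulated counts with the same spread for every gene and no cohort difference, so that test does not cover such differences here. Totals of 13626021 to 24268237 counts limit precision for low members, and libraries of 1 group differed by more than sampling noise (chi-square per degree of freedom from 5.72 to 95.6 over 47 pairs).

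Named members were the 6 highest and 6 lowest fold changes within plain IDs among those with a mean of at least 1 CPM, the 5 highest in TPM, up to 5 with the smallest p in each other comparison, and a few by role; of each other list up to 3 genes with the largest change. Members named beyond this rule (among them Slc25a3, Slc25a24 and Slc25a40) were chosen after their values were seen. The members and lists were chosen with earlier results of these data known. Alternatives were other scalings, filters and thresholds, DESeq2 1.42.0, limma-voom (limma 3.58.1), a replicate block and leaving out each library. Promoter windows are from RefSeq (GRCm38.p6).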

Additional observations from a re-analysis of the deposited data

Results flagged for a closer look

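Among 78 groups of values of 26 named members, 6 had 1 library apart from the others of its group, and chance alone gives about 1 in 20 groups. Control 8 was the low library of the plain controls for Slc25a37 (1706 CPM), Slc25a38 (137 CPM) and Slc25a51 (385 CPM), and it also had the lowest summed erythroid markers of that group, 9475 CPM. Gluten-free S8 was apart in its group for Slc25a12 (62.5 CPM, high), Slc25a16 (24.6 CPM, high) and Slc25a36 (60.2 CPM, low), and it had the highest summed erythroid markers, 23488 CPM. The part of these cells in the values was not tested.

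The diet effect differed between the S and the plain IDs, by the interaction test, for 13 named members. On the log2 scale (S minus plain) the interaction was 1.43 for Slc25a21, 1.30 for Slc25a38, 1.13 for Slc25a37 and 0.93 for Slc25a51. It was 0.67 for Slc25a44, 0.62 for Slc25a5, 0.59 for Slc25a16, 0.59 for Slc25a32, 0.57 for Slc25a42, 0.54 for Slc25a12, 0.50 for Slc25a25 and 0.49 for Slc25a15. Slc25a23 was the only negative one, at -0.83.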

How the results depend on the processing

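Over 48 results for single members named by the rule above and 1345 alternatives, 1188 kept direction and side of the threshold. Of the rest 125 lost the call, 32 gained it and 0 reversed. Slc25a17, called within plain IDs, is not among these members, and its sign changed with library totals. Members called are given as higher and lower, with the percent of all tested genes called beside them. That percent is not given for an adjusted p under 0.1 or 0.01. Except where said, the cause was not tested. Over both ID forms (0 and 0), DESeq2 gave 3 and 6 (2.21% and 6.27%), and an adjusted p under 0.1 gave 3 and 5. Leaving out 1 library gave 0 to 4 and 0 to 9 (0% to 8.05% and 0% to 12.2%). Within plain IDs (7 and 14), an adjusted p under 0.01 gave 4 higher, and library totals gave 12 and 7 (35.5% and 11.1%). For the interaction (13 and 1), an adjusted p under 0.01 gave 3 and 0, and library totals 4 and 3 (7.05% and 14.4%). The lower count was 2 with an adjusted p under 0.1. It was also 2 with RLE size factors (9.37%), a mean of at least 1 CPM (12.1%), protein-coding genes alone (11.6%), DESeq2 (10.7%) or limma-voom (10.8%). Without control 4 and gluten-free S1, an alternative chosen after seeing the data, it was 2 as well (10.9%). Upper-quartile scaling gave 3 lower (12.3%), no filter 0 (4.29%), and leaving out 1 library 0 to 2 (5.93% to 11.5%). For ID form within control (0 and 0), leaving out 1 library gave 0 to 1 and 0 to 2 (0% to 3.67% and 0% to 1.46%). For ID form within gluten-free (10 and 1), an adjusted p under 0.01 gave 6 and 0, and library totals 6 and 11 (8.87% and 31.5%). The lower count was 7 with an adjusted p under 0.1, 5 with limma-voom (17.5%) and 3 without control 4 and gluten-free S1 (15.2%). It was 2 with upper-quartile scaling (17.9%), a mean of at least 1 CPM (18.6%) or DESeq2 (15.7%), and 1 to 5 without 1 library (8.67% to 19.0%). With a replicate block on the shared ID numbers, members called within plain IDs came to 0 and 0 (0.142% and 0.0654%). That fit holds 4 libraries in 2 pairs, so it has fewer samples. The block also gave 0 and 0 over both ID forms (0% and 0%) and within S IDs (0.310% and 0.251%). Libraries that share a number correlated at -0.17 (7), -0.20 (8), 0.094 (S1) and 0.38 (S6), so the numbers were not taken to pair the libraries; S1 and S6 each correlated best with its own number, and 7 and 8 did not. Depth limits Slc25a2, Slc25a34, Slc25a41, Slc25a48 and Slc25a54, which were not tested.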

Other observations

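Carrier proteins that go by other symbols were read in the plain IDs too. Mtch2, an outer membrane relative of the carriers, fell by 0.43 on the log2 scale (standard error 0.09, adjusted p = 0.00158), and the uncoupling protein Ucp2 fell by 0.46 (standard error 0.17, adjusted p = 0.0468). Mtch1 changed by -0.09 ± 0.08 (adjusted p = 0.410).

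Of 18 inner membrane transporters from other families 7 fell and 2 rose in the plain IDs (median log2 fold change -0.16), against 22.1% and 17.5% of all tested genes. The lowest were Tmem14c (-1.41 ± 0.11), which moves a haem precursor in red cell precursors, and Abcb10 (-1.33 ± 0.16), known from the same cells. The pyruvate carrier subunit Mpc2 changed by -0.66 ± 0.10 (adjusted p = 0.000147).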
